A study of Mus musculus with 12 samples.

Results

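The resting transcriptome of mpkCCDc11 cells was taken from the 3 libraries of cells that received control siRNA and vehicle, chosen by those labels, out of 12 libraries in the series. The cells were labelled wild type (WT), were transfected with 50 nM control siRNA, grew for 4 days on semipermeable filters, spent 24 h in medium with neither serum nor hormones, and then received vehicle (0 nM dDAVP) for 24 h. The growth medium had held 50 nM dexamethasone, 1 nM triiodothyronine, 10 ng/mL epidermal growth factor, 5 µg/mL insulin, 5 µg/mL transferrin, 60 nM selenite and 2% serum. The other 9 libraries of the series, which received dDAVP, a Ctnnb1 siRNA or both, were not used for levels. The line is 1 clone, and the labels do not say whether its 3 replicates were separate cultures, so every SD here measures the spread between these libraries, which may be technical. No groups were compared, and no test between groups was run.

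The mpkCCD lines were derived from a microdissected cortical collecting duct of a mouse that carried the SV40 large T antigen under the regulatory sequences of the L-type pyruvate kinase gene. The collecting duct is the last part of the renal tubule. Its principal cells reabsorb sodium through the epithelial sodium channel ENaC and water through aquaporins, the latter under the control of vasopressin acting on the V2 receptor, Gs and cAMP. Its intercalated cells move acid or base with a vacuolar proton pump and anion exchangers.

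The libraries held 48935473, 32997720 and 45399824 counted reads (replicates 1 to 3, the order of all triplets of values below). For a gene without a read in a library, the expected count could still be up to 3 reads. That corresponds to 0.0613, 0.0909 and 0.0661 CPM (reads scaled to 1000000 per library) in the 3 libraries, and these floors cover counting error only. Levels are in TPM, the authors' unit of reads divided by transcript length and scaled to a sum of 1000000 per library, with the mean ± SD over the 3 libraries. A gene was taken as expressed at a mean of at least 1 TPM. Of 25208 genes in the table, 13888 (55.1%) were expressed, 8083 had reads but less than 1 TPM, and 3237 had no read in any of the 3 libraries. Among 15155 protein-coding genes, 11179 (73.8%) were expressed, and the median was 16.3 TPM, against 2.03 TPM over all genes. A listed gene with no value here was not analysed. Genes without a read over the 12 libraries have no row, so such a gene may have had no read. The 73.8% covers only protein-coding genes with a row. Over all annotated protein-coding genes, the share expressed per autosome was 40.8% (chromosome 7) to 61.6% (chromosome 12). A list share under 73.8% therefore need not lie under the share of all annotated genes. The shares of lists below likewise cover genes with a value only, which may make them too high. Left out were, for example, 20 of 34 proximal tubule genes and 7 of 20 genes shared by both intercalated types.

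Promoter letters were read for genes on which the account of this line turns. Aqp2, the vasopressin-regulated water channel, stood at almost no transcript. Pklr, the gene whose regulatory sequences drive the transgene of the line, was well expressed. Tfcp2l1, a transcription factor gene of the collecting duct, was among the more abundant factors. Sequences are RefSeq promoter entries on GRCm38.p6, 5′ to 3′ on the plus strand, and each ends before the first exon annotated in GENCODE M21, which for the downstream Pklr start leaves out the last 51 of the 250 bases before it. Capitals mark the letters of the motifs searched on both strands, namely TGACG (a cAMP response element half-site), AGATAA (bound by factors of the GATA family), TATAAA (the core promoter box of that name), CACGTG (an E-box) and CACGNNNNNNNNNCGTG (E-box parts in a pair, with the free bases in lower case).
Aqp2, chr15:99578806-99579054: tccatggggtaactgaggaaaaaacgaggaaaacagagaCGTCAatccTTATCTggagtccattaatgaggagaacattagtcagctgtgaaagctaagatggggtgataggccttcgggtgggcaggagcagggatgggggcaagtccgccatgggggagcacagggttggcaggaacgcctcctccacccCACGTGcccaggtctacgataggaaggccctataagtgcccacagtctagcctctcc
Pklr, upstream start, chr3:89135892-89136141: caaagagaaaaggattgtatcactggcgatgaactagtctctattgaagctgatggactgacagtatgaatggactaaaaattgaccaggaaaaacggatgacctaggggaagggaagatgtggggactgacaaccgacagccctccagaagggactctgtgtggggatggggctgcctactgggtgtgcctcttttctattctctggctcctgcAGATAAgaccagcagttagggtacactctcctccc
Pklr, downstream start, chr3:89136373-89136571: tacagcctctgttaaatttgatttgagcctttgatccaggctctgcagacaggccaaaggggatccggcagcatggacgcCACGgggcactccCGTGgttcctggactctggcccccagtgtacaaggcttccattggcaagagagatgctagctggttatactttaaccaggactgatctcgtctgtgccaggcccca
Tfcp2l1, chr1:118627695-118627944: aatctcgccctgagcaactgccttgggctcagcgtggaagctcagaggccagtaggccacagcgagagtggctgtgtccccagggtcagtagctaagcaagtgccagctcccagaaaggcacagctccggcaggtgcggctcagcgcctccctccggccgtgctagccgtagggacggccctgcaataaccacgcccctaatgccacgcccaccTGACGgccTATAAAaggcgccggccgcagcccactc

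The Aqp2 stretch held the half-site on the reverse strand from 211 bases before the start site (position 99579056), a GATA motif on the reverse strand from 202 bases before it, and an E-box from 58 bases before it. Among 32851 mouse promoter entries, the 250 bases before the start held the half-site in 17.8%, the GATA motif in 9.99% and the E-box in 6.02%. Pklr had 2 start sites 481 bases apart. A GATA motif lay 35 bases before the upstream one, and the paired E-box parts began 170 bases before the downstream one, an arrangement found in 0.219% of promoter entries. In textbook accounts the upstream start of Pklr is the red cell one and the downstream start the liver and kidney one, with the paired E-boxes as its carbohydrate response element. The counts are per gene and do not tell the starts apart. Tfcp2l1 had a TATA box 28 bases before its start site, found in 12.4% of promoter entries, and a half-site 36 bases before it. A match describes letters only.

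The most abundant transcripts were small structural RNAs. Rn7sk, the 7SK RNA that restrains transcription elongation, had 53991, 39629 and 37790 TPM. Rn7s2 and Rn7s1, near-identical copies of the signal recognition particle RNA whose reads may be split between them, had 26143 ± 3758 and 26031 ± 3751 TPM (SD, n = 3). Replicate 1 was highest for all 3 genes. The mitochondrial gene COX1, a subunit of cytochrome c oxidase, had 12257 ± 668 TPM. The 10 most abundant genes together took 14.5% ± 1.52 of TPM (SD, n = 3). TPM divides by length, so short RNAs weigh more in TPM than in reads: small structural, ribosomal and mitochondrial RNA took 15.4% ± 1.52 of TPM but 3.94% ± 0.289 of reads.

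Among the other genes the highest were those of protein synthesis, chromatin and the cytoskeleton. Eef1a1, the elongation factor that brings aminoacyl-tRNA to the ribosome, led with 6775 ± 219 TPM (SD, n = 3). It was followed by ribosomal protein genes such as Rpl41 (4946 ± 371), Rps29 (3617 ± 123) and Rps12 (3524 ± 229), by Ppia (3430 ± 40.9), a prolyl isomerase, and by Actb (3266 ± 193), cytoplasmic actin. The 85 ribosomal protein genes took 13.1% ± 0.299 of TPM. Histone genes, many of which make RNA without a poly(A) tail that ribosomal depletion retains, took 6.22% ± 0.144, led by H4c4 at 3001 ± 154 and H1f2 at 2370 ± 119 TPM. The long noncoding RNA Malat1 had 2250 ± 75.5 TPM.

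Genes of more restricted expression stood close behind. Krt18, an intermediate filament of simple epithelia, had 1548, 1584 and 1528 TPM, and its partner Krt8 had 1081, 1123 and 1104 TPM, so that Krt18 was 1.41 ± 0.0238 times Krt8 within a library. Lcn2, an iron-siderophore binding protein secreted by distal tubule cells, had 1379, 1484 and 1496 TPM and ranked 77 of all genes. With exon lengths from GENCODE M21 in place of the authors' lengths, Lcn2 had 815 TPM and ranked 146 of 15244 genes with such a length, while Krt18 had 2611 TPM and ranked 26. Cd24a, a surface sialoglycoprotein of progenitor and tubular epithelia, had 1290 ± 58.0 TPM. Wfdc2, a secreted protease inhibitor, had 1001 ± 36.5 TPM. Mal2 (993 ± 35.7) and Mal (712 ± 27.2), proteolipids of apical membrane traffic, also stood high. Cdh16, the kidney-specific cadherin, had 814, 715 and 759 TPM, which was 3.06 ± 0.366 times Cdh1, E-cadherin. The 3 libraries gave similar values for each of these genes. Lcn2 is also a defining gene of the injured tubule list, of which 15 of 18 genes with a value were expressed (83.3%, against 73.8% of all protein-coding genes), with a median of 30.5 TPM. Of that list, the keratin genes Krt7 (535 ± 12.3) and Krt19 (180 ± 5.26) and Clu, the secreted chaperone clusterin (153 ± 17.4), were among the highest, Vcam1, an adhesion molecule, had 0.660 TPM, and Ccl2, a chemokine, had no read.

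**Figure D1:**
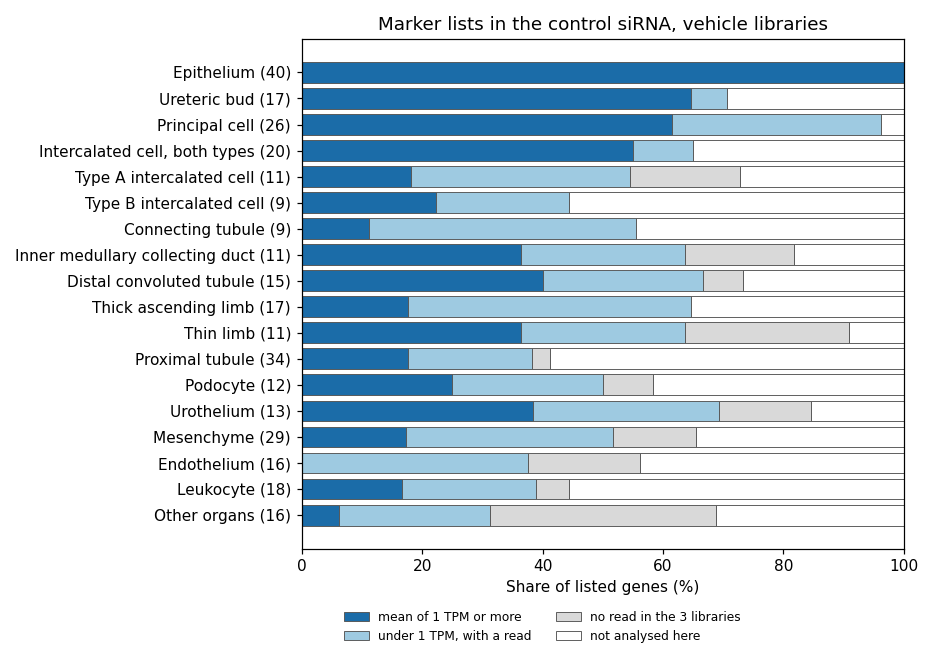
Share of the listed marker genes (%) in each state for 18 lists, with the number of listed genes in brackets. Dark blue marks a mean of 1 TPM or more over the 3 libraries, light blue reads under 1 TPM, grey no read, and white genes not analysed here. All 40 epithelial genes were expressed and none of the 9 endothelial genes with a value.

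All 40 genes of the epithelial list, among them adhesion, junction and polarity genes, were expressed, with a median of 94.7 TPM. For all protein-coding genes these values were 73.8% and 16.3 TPM. Epcam, an epithelial adhesion protein, had 547 ± 11.2 TPM, Ocln, occludin of the tight junction, 47.7 ± 2.47 TPM, and Crb3, an apical polarity protein, 89.9 ± 6.46 TPM. The splicing regulators Esrp1 (59.7 ± 3.79) and Esrp2 (72.8 ± 6.17), which set epithelial exon choice, were both expressed. In bulk RNA, a low level in all cells and a higher level in a few of them cannot be told apart. Of 19 mesenchymal genes with a value, 5 were expressed (26.3%), namely Fn1, Gsn, S100a4, Sparc and Twist1, with fibronectin gene Fn1 at 86.0 TPM. None of the 3 defining mesenchymal genes with a value reached 1 TPM, and Col1a1, a chain of type I collagen, had 225 reads. All 9 endothelial genes with a value were under 1 TPM, and their summed level was 0.930 ± 0.202 TPM (SD, n = 3). Of 8 leukocyte genes with a value, 3 were expressed (37.5%), including 1 of 3 defining ones. Ptprc, the pan-leukocyte phosphatase CD45, had 4 reads in all, while Cd14 (35.0 ± 3.46) and Csf1r (13.5 ± 1.01), receptors usually given as myeloid markers, were expressed.

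The label of the cells is collecting duct. Of the 25 principal cell genes with a value, 16 (64.0%) were expressed, with a median of 14.7 TPM, against 73.8% and 16.3 TPM for all protein-coding genes. Both shares leave out genes without a value, and the principal cell list held 26 genes. Of the 7 defining markers, Avpr2, Hsd11b2 and Scnn1g were expressed, and Aqp2, Aqp3, Aqp4 and Scnn1b were not. Avpr2, the V2 receptor (chromosome X, 73891765 to 73894428 on GRCm38), had 35.7, 29.8 and 30.1 TPM. Hsd11b2, the enzyme that inactivates glucocorticoid before it reaches the mineralocorticoid receptor, had 27.9, 27.2 and 26.8 TPM. The transcription factor gene Tfcp2l1 had 105, 108 and 116 TPM, and Gata3, a factor of the nephric duct lineage, had 29.9, 32.6 and 29.5 TPM. Elf5, an Ets factor of principal cells, had 2 reads in the 3 libraries together. Npnt, a matrix ligand of integrins made by the ureteric bud, had 127 ± 2.70 TPM, and Tmem45b, a membrane protein gene of the list, 35.9 ± 2.34 TPM.

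The vasopressin-regulated water channel was near the floor. Aqp2 (chromosome 15, 99579056 to 99584545) had 2 reads, both in replicate 1, and 0.06, 0.00 and 0.00 TPM. Aqp3, the basolateral water channel of principal cells, had 0.54, 0.71 and 0.59 TPM from 68 reads, and Aqp4, the other basolateral one, 9 reads. Aqp5, an apical water channel best known from glands and lung, had 6.26, 5.68 and 4.69 TPM. It was the only 1 of 8 aquaporins with a value to reach 1 TPM, and took 72.8% of their summed TPM. Aqp6, an intercalated cell anion-conducting member, had 0.85, 0.92 and 0.93 TPM, just under the threshold. Within a library Aqp5 was 9.18 ± 2.09 times Aqp3, and 5.57 ± 1.32 times with GENCODE lengths. Aqp6 passed 1 TPM, at 1.06 TPM, once small structural and mitochondrial RNA was left out of the TPM total. Among factors of the families that bind the motifs marked in the Aqp2 stretch, Gata3 had 30.7 ± 1.71 TPM and Creb1, the cAMP response element binding protein, 48.9 ± 5.52 TPM.

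The 3 ENaC subunits were unequal. Scnn1a, the alpha subunit, had 13.8, 15.2 and 13.7 TPM, Scnn1g, gamma, had 3.23, 2.35 and 2.74 TPM, and Scnn1b, beta, had 0.26, 0.24 and 0.11 TPM from 37 reads. Values of the 3 genes did not overlap between genes in any library. Scnn1a was 5.24 ± 1.11 times Scnn1g and 80.1 ± 38.4 times Scnn1b, the latter spread resting on few reads. Atp1b1, the main beta subunit of the sodium pump, had 160 ± 5.57 TPM. Fxyd4, the pump regulator of principal cells, had 0.557 ± 0.239 TPM, while Fxyd2, the gamma subunit of more proximal segments and the distal convoluted tubule, had 39.4, 26.3 and 29.2 TPM and Fxyd3 had 24.1 ± 1.17 TPM.

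Of 32 genes of sodium reabsorption and its control with a value, which include the channel and pump genes above, 24 (75.0%) were expressed, close to the 73.8% of all protein-coding genes. The channel-activating proteases Prss8 (83.2 ± 1.51) and St14 (142 ± 5.31) were abundant. The ubiquitin ligase gene Nedd4 had 447 ± 31.7 TPM, 26.3 ± 1.55 times its relative Nedd4l, the ligase known to remove ENaC from the membrane, at 17.0 ± 0.337 TPM. Sgk1, the aldosterone-induced kinase, had 2.23, 2.84 and 2.11 TPM, whereas Sgk3 had 35.1, 35.9 and 37.6 TPM, 15.4 ± 2.61 times as much. Nr3c2, the mineralocorticoid receptor, had 1.88, 1.79 and 1.70 TPM. Nr3c1, the glucocorticoid receptor, had 37.4, 39.1 and 39.4 TPM, 21.6 ± 1.64 times as much. Tsc22d3, a glucocorticoid-induced leucine zipper gene, had 67.2 ± 3.31 TPM.

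Of 22 genes of the V2 receptor pathway with a value, 15 were expressed (68.2%, against 73.8% of all protein-coding genes). Each step had at least 1 well expressed gene. Gnas, the stimulatory G protein subunit, had 513 ± 20.1 TPM. Of the adenylyl cyclases with a value, Adcy6, the one with the largest part in collecting duct cAMP, had 73.2, 71.5 and 77.4 TPM and Adcy9 had 4.86 ± 0.231 TPM, so that Adcy6 was 15.3 ± 0.842 times Adcy9, and 9.19 ± 0.455 times with GENCODE lengths. Adcy3, Adcy7 and Adcy10 stayed under 1 TPM, and Adcy5 had no read. The catalytic subunits of protein kinase A, Prkacb (69.9 ± 6.43) and Prkaca (61.9 ± 6.01), had a ratio of 1.13, which was 0.605 with GENCODE lengths, so that their order depended on the lengths. Of the regulatory subunits, Prkar1a stood at 109 ± 5.43 TPM and Prkar2b at 77.7 ± 2.64 TPM. Rapgef3, the cAMP-gated exchange factor Epac, had 27.0, 26.0 and 24.1 TPM, and its relative Rapgef4 had no read.

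**Figure D2:**
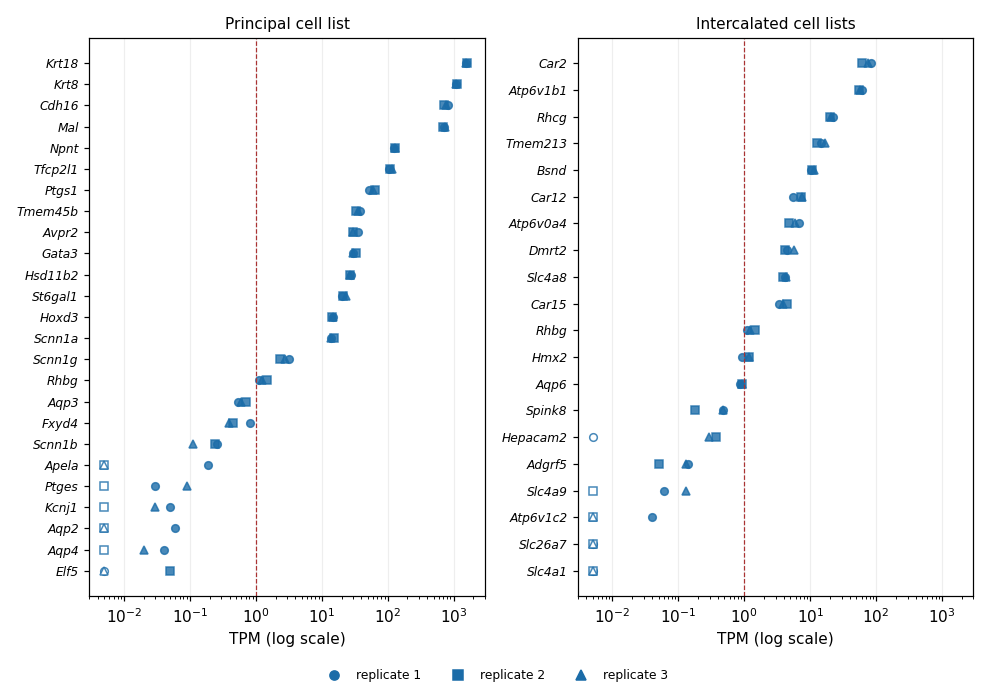
TPM on a log axis for genes with a value on the principal cell list (left) and the intercalated cell lists (right, 1 gene not shown), with 1 point per library. Open symbols at the left edge stand for 0.00 TPM, and the dashed line is 1 TPM. Aqp2, Aqp4, Kcnj1 and Elf5 lie at or below 0.06 TPM, while Avpr2, Gata3 and Hsd11b2 lie between 26.8 and 35.7 TPM.

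Potassium channel genes were dominated by 1 member. Of 42 potassium channel genes with a value, 9 were expressed (21.4%, against 73.8% of all protein-coding genes) and 11 had no read. Kcnk1, a tandem-pore weak inward rectifier, held 76.6% of their summed TPM, at 175 ± 12.6 TPM. Next came Kcnk5 (12.9 ± 0.403), Kcnn1 (12.4 ± 1.78) and Kcnq1 (11.4 ± 0.415). Kcnj1, the apical secretory channel ROMK, had 6 reads, and Kcnma1, the pore of the flow-activated large-conductance channel, 2 reads. Both encode channels through which principal cells secrete potassium, and both stood at the bottom of the range.

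Intercalated cell genes were also present in part. Of the 13 genes shared by both intercalated types that had a value, out of 20 listed, 11 (84.6%) were expressed, with a median of 4.78 TPM. For all protein-coding genes these values were 73.8% and 16.3 TPM. On the type A list 2 of 8 genes with a value were expressed (25.0%), with 0 of 3 defining ones, and on the type B list 2 of 4. Only 1 of 4 defining markers of the shared list had a value. That gene was Atp6v1b1, the proton pump subunit of intercalated cells (chromosome 6, 83743017 to 83758855), with 60.5, 55.9 and 57.7 TPM. It stood level with Atp6v1b2, the subunit found in most cells, at 61.4 ± 3.50 TPM, a ratio of 0.949 ± 0.0934 that was above 1 in 1 library and below it in the others. Atp6v0a4, another pump subunit of intercalated cells, had 5.81 ± 0.940 TPM. Car2, cytosolic carbonic anhydrase, had 83.5, 61.4 and 75.8 TPM, and Rhcg, an ammonia channel, 22.04, 20.21 and 21.01 TPM. Dmrt2, a factor of type A cells, had 4.78 ± 0.775 TPM. The exchangers that define acid-secreting cells were not seen: Slc4a1 and Slc26a7 had no read. Slc4a9, an exchanger of type B cells, had 15 reads. Of Slc4a8, a sodium-dependent bicarbonate exchanger on the type B list, 4.08 ± 0.236 TPM were found, and Slc4a2, the widely expressed anion exchanger, had 89.2 ± 0.796 TPM.

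Of the lists for other nephron segments, some genes were expressed and the defining transporters were mostly at or near 0. Shares expressed were 42.9% for proximal tubule, 27.3% for thick ascending limb and 54.5% for distal convoluted tubule, against 73.8% of all protein-coding genes. Of 14 proximal tubule genes with a value, 6 were expressed. Lrp2, megalin, had 11.68, 10.99 and 13.22 TPM, while its partner Cubn, cubilin, had 0.0833 TPM. Ass1 (27.5 ± 2.87), an enzyme of arginine synthesis, Napsa (17.4 ± 1.42), an aspartic protease, and Slc4a4 (13.9 ± 1.26), the electrogenic bicarbonate cotransporter, were the next highest. Gatm had no read, and Slc5a2, a sodium-glucose cotransporter, had 1. Of 11 thick ascending limb genes, 3 were expressed, among them Bsnd (10.8 ± 0.533), the chloride channel subunit barttin, and Irx2 (5.84 ± 0.796), a homeobox factor, and Umod, uromodulin, had 7 reads. Of 11 distal convoluted tubule genes, 6 were expressed, and Trpm7 alone held 50.0% of the list's summed TPM. Among the others were Trpm6, an epithelial magnesium channel, at 2.03 ± 0.151 TPM and Wnk4, a kinase that controls the thiazide-sensitive cotransporter, at 8.11 ± 0.458 TPM. Slc12a3, that cotransporter, had no read, and Klhl3, which targets Wnk kinases for degradation, had 7. Hsd11b2 was the only 1 of 5 connecting tubule genes with a value that was expressed, and Trpv5, the calcium entry channel, had 2 reads. Some other lists had defining genes expressed. Of 7 parietal epithelial genes with a value, 6 were expressed (85.7%), including all 3 defining ones, Cd24a, Pax8 and Cldn1, the last at 2.54 TPM. Cd24a and Krt8 held 96.3% of that list's summed TPM. Pax8 is also on the ureteric bud list, and Krt8 is also on the principal cell and epithelial lists. Of 7 podocyte genes with a value, 3 were expressed, including the 2 defining ones. For the thin limb 4 of 10 genes were expressed, with 1 of 3 defining ones. For the macula densa 2 of 4 were, with 1 of 2 defining ones. The share of the principal cell list was 64.0%.

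Of 12 ureteric bud genes with a value, 11 were expressed (91.7%, against 73.8% of all protein-coding genes). Of the 5 defining genes of that list only Wnt7b and Wnt9b had a value, and Ret, Gfra1 and Wnt11 were not analysed here. Wnt7b, a ligand of the collecting duct that patterns the medulla, had 179, 190 and 191 TPM. Pax8, a nephric lineage factor, had 79.7 ± 2.19 TPM, its relative Pax2 10.3 ± 0.686 TPM and Emx2, a homeobox factor, 16.7 ± 2.09 TPM. Uroplakins, which plate the apical face of the bladder, were split: Upk1a had 59.6, 45.1 and 48.2 TPM and Upk3b 35.9 ± 2.30 TPM, while Upk1b (13 reads), Upk2 (26) and Upk3a (18) were under 1 TPM. Krt20, a keratin of superficial bladder cells and also a defining gene of the injured tubule list, had 50.0 ± 4.32 TPM. On the urothelium list, 5 of 11 genes with a value were expressed (45.5%), including 1 of 4 defining ones.

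Hox genes, whose combination records position along the body axis, were expressed by cluster. Of 28 Hox genes with a value, 23 were expressed (82.1%, against 73.8% of all protein-coding genes). All 9 of Hoxa, 9 of 10 of Hoxb and all 5 of Hoxd were expressed, while the 4 Hoxc genes with a value had 7 reads together, all from Hoxc6. Summed levels were 111 ± 6.33 TPM for Hoxa and 359 ± 8.57 TPM for Hoxb, and Hoxd had 318, 315 and 337 TPM. The highest were Hoxd8 (166, 163 and 178 TPM) and Hoxb7 (113, 108 and 116 TPM), whose promoter is widely used to drive transgenes in the ureteric bud, followed by Hoxd4 (80.9 ± 2.23) and Hoxb9 (57.2 ± 3.26). Hoxb13, the most posterior member of its cluster, had 15.0 ± 1.19 TPM, and Hoxb1, the most anterior, had no read.

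**Figure D3:**
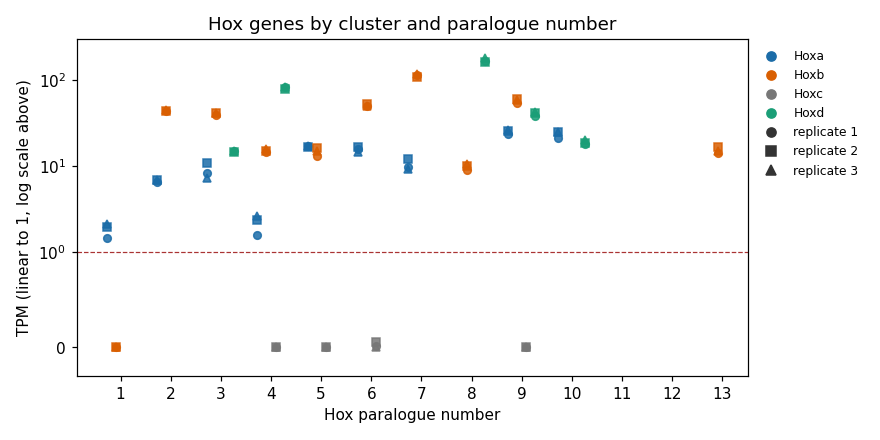
TPM of each Hox gene with a value by paralogue number (x axis) and cluster (colour), 1 symbol per library. The y axis is linear to 1 and logarithmic above, and the dashed line is 1 TPM. The 4 Hoxc genes and Hoxb1 lie at or near 0 and all other members above 1.

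Of 41 collecting duct factor genes with a value, 35 (85.4%) were expressed, with a median of 32.2 TPM, against 73.8% and 16.3 TPM for all protein-coding genes. The highest of this list was Junb, an immediate early gene, with 14.9% of the list's summed TPM. The Ets factors Ehf (206 ± 7.92) and Elf3 (87.9 ± 5.67) and the grainyhead factor Grhl2 (72.4 ± 2.62) are epithelial regulators. Mecom, a zinc finger factor, had 129 ± 2.72 TPM, and Sim1, a helix-loop-helix factor, 26.7 ± 1.96 TPM. Sox4 made up 86.3% of the summed TPM of 11 Sox genes, at 195, 240 and 244 TPM, with replicate 1 below the others. Gata3 made up 94.5% of the summed TPM of 5 GATA genes. Atf4, a factor of the amino acid and stress response, was the highest of 46 basic leucine zipper genes at 513 ± 15.2 TPM. Junb (329 ± 22.7) was the highest of the immediate early genes, followed by Jund (169 ± 16.9) and Ier2, at 129 TPM.

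Of 37 nuclear receptors with a value, 22 were expressed (59.5%, against 73.8% of all protein-coding genes) and 4, Thrb, Rorb, Nr1h4 and Nr1i2, had no read. Nr2f6, an orphan receptor, led with 134 ± 9.88 TPM. Esrrb, an estrogen-related receptor, had 113 ± 4.00 TPM, 3.51 ± 0.105 times Esrra, its more widespread relative. Rarg (60.5 ± 0.747), a retinoic acid receptor, and Rxrb (44.3 ± 1.35), a dimer partner, followed. Nr1h4 encodes the bile acid receptor and Nr1i2 the xenobiotic receptor.

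Of 15 listed receptors and transporters for components of the growth medium, 12 had a value and 10 of these were expressed (83.3%, against 73.8% of all protein-coding genes). For dexamethasone there was Nr3c1, and for triiodothyronine Thra (31.3 ± 1.40), without a read of Thrb. For epidermal growth factor, Egfr had 46.9 ± 2.13 TPM beside Erbb2 (56.5 ± 1.62) and Erbb3 (126 ± 5.48), its dimer partners. For insulin, Insr had 16.2 ± 0.846 TPM and Igf1r 25.4 ± 2.33 TPM. Tfrc, the transferrin receptor, had 111 ± 4.12 TPM, and Tfr2 had no read. The hepatocyte growth factor receptor Met stood at 97.1 ± 1.79 TPM, and of 44 receptor tyrosine kinases with a value 24 were expressed (54.5%).

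Of 51 G protein-coupled receptors with a value on the kidney list, 23 were expressed (45.1%, against 73.8% of all protein-coding genes). The highest were Adgrg1, an adhesion receptor that binds collagen (195, 212 and 216 TPM), Gprc5c, an orphan receptor (193, 191 and 204 TPM), and Lgr4, the R-spondin receptor (106, 111 and 116 TPM). Avpr2 ranked behind these. Adora1, an adenosine receptor, had 22.6 ± 0.407 TPM, and the prostaglandin receptors Ptger1 (4.66 ± 0.762) and Ptger4 (4.67 ± 0.242) were alike. Among 44 cytokine and innate immune receptors with a value, 29 were expressed (65.9%). They were led by Tnfrsf12a, the receptor of the cytokine TWEAK, at 165 ± 3.95 TPM, and Il6st, the shared signal chain of the interleukin-6 family, at 102 ± 5.02 TPM. Of 32 odorant receptors and taste receptors, none was expressed and 20 had no read.

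Solute carriers were expressed in the main, at lower levels than protein-coding genes at large. Of 283 with a value, 183 (64.7%) were expressed and 29 had no read, with a median of 6.06 TPM, against 73.8% and 16.3 TPM for all protein-coding genes. The 45 mitochondrial carriers of the Slc25 family, of which 40 were expressed, held 38.7% ± 0.204 of the family's TPM, led by the adenine nucleotide carrier Slc25a4 (458 ± 16.0) and the phosphate carrier Slc25a3 (438 ± 21.1). Of the other carriers, Slc38a2, a neutral amino acid transporter, was highest at 274 ± 17.4 TPM, followed by Slc3a2 (136 ± 8.15), the heavy chain of amino acid exchangers, and Slc39a1 (109 ± 6.74), a zinc importer. Slc12a2, the basolateral sodium-potassium-chloride cotransporter, had 39.2 ± 2.87 TPM. Slc14a2, the urea transporter of the inner medulla, had no read. Slc6a6, an osmolyte (taurine) transporter, had 48.5 ± 2.77 TPM. Among anion channels Clcn3 (88.4 TPM), Ano6 (60.9) and Ano1 (41.2 ± 2.89) were highest, and Cftr, the cystic fibrosis channel, had 13 reads. Trpv4, a mechano- and osmosensitive channel, had 67.0 ± 4.50 TPM.

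**Figure D4:**
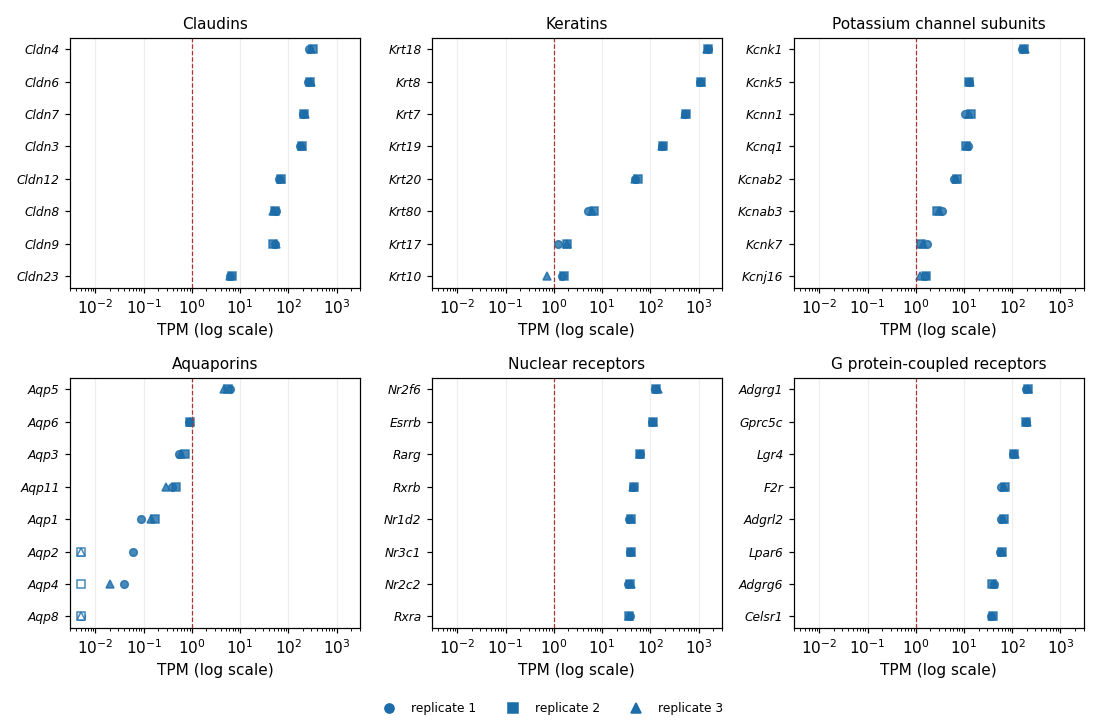
TPM on a log axis of the 8 highest genes in each of 6 families, 1 point per library. Open symbols at the left edge stand for 0.00 TPM and the dashed line is 1 TPM. Aquaporins are lowest, with Aqp5 alone above 1 TPM in all libraries, while Kcnk1 stands apart from the other potassium channel genes.

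Claudins, which set the permeability of tight junctions, were led by 4 genes. Of 16 claudins with a value, 10 were expressed (62.5%, against 73.8% of all protein-coding genes). Cldn4 (296 ± 24.6), a chloride-selective claudin of the collecting duct, Cldn6 (278 ± 16.5), best known from embryonic epithelia, Cldn7 (212 ± 9.12) and Cldn3 (184 ± 6.61) were each above 100 TPM. Cldn6 was 0.943 ± 0.0329 times Cldn4 and below it in every library. Cldn8, the partner of Cldn4, had 51.5 ± 3.73 TPM, whereas Cldn2, the cation pore of the proximal tubule, had 0.643 ± 0.0850 TPM. Of the basement membrane genes, Lamb1 (203 ± 6.67) was the highest laminin chain and Col4a5 (84.4 ± 2.04) the highest chain of type IV collagen. Of the connexins, which form gap junctions, Gjc1 had 36.8 ± 0.794 TPM.

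Genes of proliferation were expressed throughout. All 20 S phase genes and all 25 genes of mitosis were expressed, against 73.8% of all protein-coding genes. Pcna, the replication clamp, had 836, 796 and 838 TPM, Top2a, topoisomerase II alpha, 462, 492 and 522 TPM, and Mki67, the proliferation marker, 168, 170 and 182 TPM. Cdk4, the cyclin D-dependent kinase, had 769 ± 4.61 TPM, with Ccnd1 (34.1 TPM) and Ccnd3 (29.9 TPM) expressed and Ccnd2 without a read. The inhibitor genes Cdkn2a (102 ± 9.07) and Cdkn1b, at 148 TPM, were expressed, and Cdkn1c had 2 reads. Pklr had 98.1, 126 and 114 TPM. Pkm, the other pyruvate kinase gene, was 9.85 ± 1.52 times Pklr within a library, and 5.04 ± 0.659 times with GENCODE lengths. All 22 genes of the primary cilium were expressed, with a median of 21.4 TPM, against 16.3 TPM for all protein-coding genes.

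Replicates differed little for most genes. On log2 TPM + 1 over the 13888 expressed genes, Pearson's r between libraries was 0.9936 to 0.9941, a description of libraries of 1 group. The counts of each pair differed by more than sampling noise, with a chi-square per gene whose median was 1.37 to 1.90 (0.455 for sampling noise alone) and whose mean was 6.27 to 11.4, so no library was taken as a copy of another. The median coefficient of variation (CV, SD over mean) of TPM was 12.8% for genes of 1 to 10 TPM, 5.89% for 10 to 100 TPM and 4.15% from 100 TPM. Of all genes at 10 TPM or more, AY036118 and Rn18s-rs5 had the largest CVs. AY036118 had 128, 743 and 31.1 TPM and Rn18s-rs5 131, 457 and 97.7 TPM, both highest in replicate 2.

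Some protein-coding genes varied in TPM and hardly in reads. Of 8809 protein-coding genes at 10 TPM or more, 52 had a TPM CV of at least 20%, and 15 of those 52 also had a CV of at least 20% in CPM. Mboat2, a lysophospholipid acyltransferase, had 55.9, 28.4 and 25.9 TPM but 138, 170 and 179 CPM. Mrpl4, a mitochondrial ribosomal protein gene, had 21.4, 38.2 and 37.8 TPM and 25.0, 25.2 and 24.4 CPM. Adnp, a homeobox gene, differed on both scales, with 24.5, 51.0 and 66.2 TPM and 63.5, 126 and 160 CPM. The cause of these differences was not tested.

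**Figure D5:**
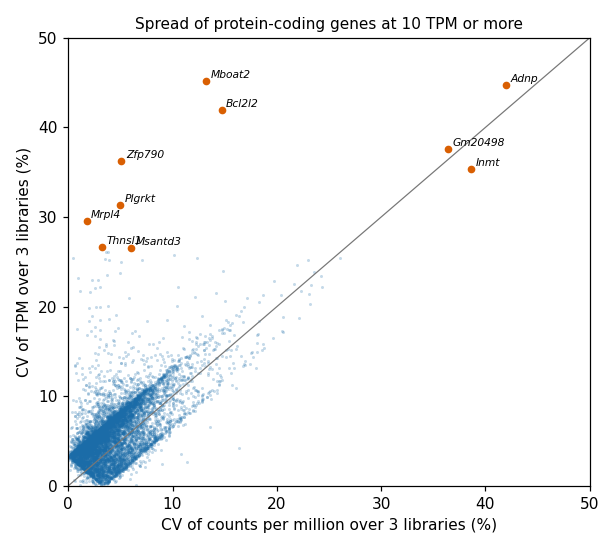
CV (%) over the 3 libraries of CPM (x axis) and of TPM (y axis) for the 8809 protein-coding genes at 10 TPM or more, with the line of equal CV. Named orange points are the 10 genes of largest TPM CV, of which Adnp, Gm20498 and Inmt lie near the line and the other 7 above it.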

How the data were processed

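RNA was sequenced from 12 libraries, of which the 3 of control siRNA and vehicle were used. Per the labels, total RNA was depleted of ribosomal RNA and made into strand-specific libraries. Per the submitters' processing notes, FastQC, Trimmomatic, HISAT2, StringTie and DESeq2 were used with GRCm38 (mm10), without versions. Per the file headers, the authors deposited 1 column of unnormalised read counts and 1 column of TPM per library for 25208 genes. Whether counting used the strand is not given in the sources used here, so reads of overlapping or antisense genes may not be told apart. A gene has a row only with at least 1 read over the 12 libraries. The deposited TPM values are given to 2 decimals, so a gene with few reads can stand at 0.00.

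Means, SDs and CVs were computed from the TPM columns in Python 3.11.15 with pandas 2.3.3 and numpy 2.4.6. All per-sample columns of the 3 libraries were mapped by name. TPM is scaled by length and compares genes, while CPM (reads scaled to 1000000 per library) compares 1 gene between libraries. Biotypes, coordinates and promoter letters came from RefSeq (GRCm38.p6), and 70 genes had no RefSeq entry. The computation of TPM from counts and the call at 1 TPM were tested on counts simulated from these levels with random lengths. That simulation tests neither the gene lists and biotypes nor the deposited TPM.

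The members, gene lists and rules were chosen with earlier results of these data known. Genes were named as the 20 highest of all genes, the 20 highest without small structural, mitochondrial and predicted genes, the defining markers, highest members and unread members of each list, the 6 highest of each family, and the 10 most variable at 10 TPM or more. The text gives the part of these chosen for role, and other members of the lists that complete a pair or pathway, taken after their values were seen. Symbols that are no carriers were taken out of the solute carrier family after its members were seen. Alternatives were each library left out, TPM without small structural and mitochondrial RNA, CPM, thresholds of 0.5 and 5 TPM, and 1 TPM in every library. TPM with GENCODE M21 exon lengths was added after seeing the data. Some genes that these rules name are not reported here, but remain in the counts, medians and sums.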

Additional observations from a re-analysis of the deposited data

How the results depend on the processing

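The 13888 expressed genes became 13869 to 13943 with 1 library left out, 13730 without small structural and mitochondrial RNA, 13381 with 1 TPM required in every library, 13230 at 1 CPM, 15162 at 0.5 TPM and 11065 at 5 TPM. The share of the 10 most abundant genes, 13.7% to 15.2% with 1 library left out, was 4.53% after removal of small structural and mitochondrial RNA and 6.64% in reads. The count of intercalated cell genes fell from 11 to 6 at 5 TPM. That of thick ascending limb genes rose from 3 to 5 in CPM and at 0.5 TPM. The counts of principal cell, proximal tubule, distal convoluted tubule and epithelial genes, of solute carriers and of nuclear receptors stayed within 1.5 times under every alternative run. Over all 82 counts, including every other list and family, 13 moved by more than that at 5 TPM and at most 4 under any other alternative. Potassium channel genes went from 9 to 5 and imprinted genes from 5 to 3 at 5 TPM, imprinted genes also to 3 with GENCODE lengths, and connecting tubule genes from 1 to 2 at 0.5 TPM and with GENCODE lengths. Aqp6 crossed 1 TPM without small structural and mitochondrial RNA (1.06 TPM), in CPM (1.24) and with GENCODE lengths (1.79), which made Aqp5 no longer the only expressed aquaporin, and Aqp3 had 1.05 TPM with GENCODE lengths. On the log2 scale, leaving out small structural and mitochondrial RNA raised every other gene by 0.24, and the median expressed gene moved by 0.32 with GENCODE lengths and by 0.36 in CPM. GENCODE lengths were known for 80.9% of expressed genes, and 25.8% of these genes moved by over 1.5 times beyond that median, so orders between genes depend on the lengths used. TPM with RefSeq exon lengths was not run. No paired analysis was possible because 1 group was described and no groups were compared. Depth limits the low end: a gene with no read in the 3 libraries may still be expressed below the floors given.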

Other observations

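The 13 mRNAs that mitochondrial DNA encodes, which are cut from shared precursors, were listed at very unequal levels. COX1 had 11696, 12080 and 12995 TPM, COX3 5266 ± 113 TPM, and ND2, a subunit of complex I, 45.7, 57.9 and 47.3 TPM (SD, n = 3). COX1 was 256, 209 and 275 times ND2 in the 3 libraries. The 3 libraries agreed in this order.

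Xist, the X inactivation transcript, had 21 reads in the 3 libraries and 0.00, 0.04 and 0.02 TPM. Of 966 protein-coding genes that RefSeq places on the X chromosome, 481 (49.8%) had a row, against 1 of 256 (0.4%) on the Y chromosome. The other nuclear chromosomes lay between 56.8% and 82.8%.

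Of 12 imprinted genes with a value, 5 were expressed (41.7%, against 73.8% of all protein-coding genes). Igf2r, whose product clears insulin-like growth factor 2, took 76.0% of their summed TPM at 59.0 ± 3.33 TPM. H19 had 37 reads, Igf2 8 and Meg3 2, and Mest and Grb10 had none. Kcnq1ot1, a long noncoding RNA that silences its neighbours, had 5.56 TPM.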
